A study of Mus musculus with 66 samples.

Results

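The genes described here are 5 Schlafen genes of mouse chromosome 11 (Slfn2, Slfn5, Slfn8, Slfn9 and the pseudogene Slfn10-ps) and AI662270, a long non-coding RNA gene of the same region, which makes 6 of the 55487 genes in the tables. They were chosen by name from their position near one another and from their expected counts in the same 7 libraries that are used below, so their levels are given as a description, without a test. Each library held total RNA of E14 mouse embryonic stem cells, an established line, grown without further treatment in serum with LIF and with inhibitors of GSK and MEK1/2. The 2 GDel1 and the 2 GDel2 libraries share 1 genotype label, a deletion of a G-quadruplex sequence at Praf2, a gene on the X chromosome, and the 3 WT libraries are from wildtype cells. Whether GDel1 and GDel2 are different clones, or the replicates different cultures, is not stated in the labels. The p-values below therefore measure only the spread between these samples, which may be technical. In bulk RNA, fewer cells of a type and less RNA per cell cannot be told apart.

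Schlafen proteins are a family of mammals and some other vertebrates, best known from lymphocytes and myeloid cells, many of whose genes are induced by interferon. Several members act on RNA: Slfn2 binds tRNAs and keeps T cells quiescent, and human SLFN13, a relative of mouse Slfn8 and Slfn9, cuts tRNA and rRNA. Interferons signal through receptors and Janus kinases to STAT and IRF factors, some of which bind a sequence called the interferon-stimulated response element (ISRE) in the promoters of their target genes. Embryonic stem cells are known for a muted interferon response.

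The 6 genes span one stretch of chromosome 11 in the GRCm38.p6 assembly (mm10). Slfn5 lies first, at chr11:82951349-82964850, followed by Slfn9 at chr11:82974316-82991830, Slfn8 at chr11:83002125-83020810, Slfn10-ps at chr11:83028123-83040533 and Slfn2 at chr11:83065112-83070678. The gaps between Slfn5, Slfn9, Slfn8 and Slfn10-ps are 9.46, 10.3 and 7.31 kb, and Slfn2 follows after a gap of 24.6 kb. AI662270 lies farther along, at chr11:83223576-83226584, beyond Slfn1, Slfn4 and Slfn3 and 8.42 kb past the end of Slfn3. The RefSeq table held promoter windows for 4 of the 6 genes (Slfn5, Slfn8, Slfn9 and Slfn2).

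The 250 bases before 1 annotated start are shown for each of these 4 genes, because the windows of Slfn9 and Slfn8 resemble each other and share a match to the interferon element. The sequences are RefSeq's, in GRCm38.p6, read 5′ to 3′ on the strand of the gene: chr11:82951852-82952101 on the plus strand for Slfn5, chr11:82991831-82992080 on the minus strand for Slfn9, chr11:83020811-83021060 on the minus strand for Slfn8 and chr11:83064862-83065111 on the plus strand for Slfn2. This Slfn5 window lies inside the gene's span, before an internal transcript start. Capitals mark each match to an ISRE core, searched as 2 copies of GAAA with any 2 bases between them, or on the other strand 2 copies of TTTC.
Slfn5: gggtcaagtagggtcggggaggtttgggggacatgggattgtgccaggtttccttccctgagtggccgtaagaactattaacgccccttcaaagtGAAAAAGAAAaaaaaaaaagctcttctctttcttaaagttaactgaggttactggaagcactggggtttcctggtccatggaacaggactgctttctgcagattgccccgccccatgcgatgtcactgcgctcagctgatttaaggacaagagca
Slfn9: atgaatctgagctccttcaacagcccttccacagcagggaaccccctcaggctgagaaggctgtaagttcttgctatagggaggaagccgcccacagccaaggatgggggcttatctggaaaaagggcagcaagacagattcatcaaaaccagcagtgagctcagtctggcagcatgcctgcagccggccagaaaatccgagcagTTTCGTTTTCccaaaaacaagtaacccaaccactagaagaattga
Slfn8: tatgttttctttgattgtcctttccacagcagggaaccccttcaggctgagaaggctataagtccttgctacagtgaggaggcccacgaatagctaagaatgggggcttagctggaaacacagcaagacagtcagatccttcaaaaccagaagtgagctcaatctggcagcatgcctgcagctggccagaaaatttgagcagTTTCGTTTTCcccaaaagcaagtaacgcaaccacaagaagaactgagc
Slfn2: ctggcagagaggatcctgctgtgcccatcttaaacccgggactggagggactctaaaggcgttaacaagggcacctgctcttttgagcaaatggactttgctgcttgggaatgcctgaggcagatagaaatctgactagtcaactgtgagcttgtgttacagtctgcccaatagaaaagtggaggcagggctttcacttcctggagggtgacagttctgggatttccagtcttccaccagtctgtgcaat

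The windows of Slfn9 and Slfn8 held the same match, TTTCGTTTTC, with its first base at position -45 from the start of Slfn9 and at -48 from that of Slfn8. A second annotated start of Slfn8 shares this stretch, which there begins at -136. In a local alignment, 200 of 221 aligned bases of the Slfn9 and Slfn8 windows were identical (90.5%), with a longest shared run of 20 bases. No other pair of genes shared a run longer than 9 bases. Slfn5 held GAAAAAGAAA, within a stretch rich in A, with its first base at -155, and Slfn2 held no match. Of 32851 promoter windows of the same length in the table, 978 (2.98%) held an ISRE match on either strand. Neither TTCNNNGAA, the interferon gamma-activated sequence, nor TATAAA was found on either strand in these windows, against 7.02% and 12.4% of all windows. A match is a description of the letters and not a measured binding site.

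The 7 libraries held 12316853 to 18762704 expected counts, and mitochondrial genes took 4.83% to 9.91% of them, with the highest shares in GDel1 replicate 1 and GDel2 replicate 2. Praf2, the gene at the deletion, was at 10.1 and 9.26 CPM (counts scaled to library size) in GDel1, 13.1 and 14.1 CPM in GDel2 and 27.5, 28.8 and 30.6 CPM in WT. It fell in both deletions (log2 fold change -1.59 in GDel1, edgeR quasi-likelihood adjusted p = 0.00206, and -1.09 in GDel2, adjusted p = 2.01e-04). At an adjusted p under 0.05, 58 of 15421 genes tested were called in GDel1 against WT (25 higher, 33 lower), 5099 in GDel2 against WT (2688 higher, 2411 lower) and 4268 in GDel2 against GDel1 (2289 higher, 1979 lower). On the TPM scale (scaled for length and library size, tested with limma), the split became 30 higher and 3220 lower in GDel1 against WT, and 3383 higher and 364 lower in GDel2 against GDel1. All 3 comparisons use the same fit, and both deletions share the WT libraries. The 8 stem cell markers were all detected, with a summed level of 1666 to 2159 TPM in GDel1, 1691 to 1996 TPM in GDel2 and 1956 to 2289 TPM in WT. These sums carry the shift of the TPM scale in GDel1. In GDel2 against WT, Zfp42 (1.154, adjusted p = 5.81e-05) and Nanog (0.40, adjusted p = 0.00956) rose, and Dppa5a (-0.81, adjusted p = 0.00893), Sox2 (-0.40, adjusted p = 0.012) and Esrrb (-0.36, adjusted p = 0.04) fell. Calls were lost without GDel2 replicate 2 for Dppa5a (0.0848), without WT replicate 1 for Nanog (0.0531), without GDel2 replicate 1 (0.0658) or WT replicate 3 (0.0542) for Sox2, and without any one of the 5 libraries for Esrrb (0.0766 to 0.22).

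Slfn9 was the best detected Schlafen gene, and its level was low in GDel1, high in GDel2 and intermediate in WT. It encodes one of the long Schlafen proteins with a helicase-like part (ENSMUSG00000069793). Its level was 2.90 and 3.28 CPM in GDel1, 19.96 and 27.25 CPM in GDel2, and 8.54, 8.10 and 9.24 CPM in WT. These rest on 36.3 and 63.2 expected counts in GDel1, 253 and 377 in GDel2, and 116, 131 and 176 in WT. No library of one group reached the range of another. The means were 3.09 ± 0.269 CPM in GDel1 and 23.6 ± 5.15 CPM in GDel2 (SD, n = 2 each), and 8.63 ± 0.574 CPM in WT (SD, n = 3). Slfn9 was thus 2.77-fold lower in GDel1 than in WT (log2 -1.47 ± 0.19, SE) and 2.73-fold higher in GDel2 than in WT (log2 1.45 ± 0.16, SE). GDel2 stood 7.58-fold above GDel1 (log2 2.92 ± 0.20, SE).

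Slfn8, the close paralog of Slfn9 (ENSMUSG00000035208), lay in the same order at a lower level. It was at 0.725 and 1.09 CPM in GDel1, 2.45 and 1.88 CPM in GDel2, and 1.10, 1.36 and 1.52 CPM in WT. Both GDel2 libraries were above every WT library, while the higher GDel1 library lay just under the lowest WT library. The log2 difference was -0.52 ± 0.32 in GDel1 against WT, 0.68 ± 0.29 in GDel2 against WT and 1.20 ± 0.33 in GDel2 against GDel1 (SE). Without GDel1 replicate 1 the first of these was -0.30, and without GDel1 replicate 2 it was -0.88.

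Slfn5, whose human counterpart SLFN5 binds chromatin (ENSMUSG00000054404), was near the limit of what this depth can count. It had 3 and 11 counts in GDel1, 20 and 23 in GDel2, and 8, 16 and 12 in WT. Scaled to depth these were 0.242 and 0.573 CPM in GDel1, 1.58 and 1.66 CPM in GDel2, and 0.589, 0.990 and 0.630 CPM in WT. The GDel2 libraries stood above all others, and GDel1 replicate 2 lay just under WT replicate 1. The log2 difference was -0.76 ± 0.46 in GDel1 against WT, 1.13 ± 0.38 in GDel2 against WT and 1.88 ± 0.46 in GDel2 against GDel1 (SE). From the summed counts, GDel1 was 1.67-fold lower than WT, with a 95% exact interval of 0.877-fold to 3.35-fold that covers counting error only and includes equality. Without GDel1 replicate 1 the log2 difference in GDel1 was -0.36, and without GDel1 replicate 2 it was -1.58.

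Slfn10-ps, annotated by RefSeq as a transcribed RNA and named as a pseudogene (ENSMUSG00000072621), stood apart only in GDel2. It was at 0.483 and 0.625 CPM in GDel1, 1.11 and 1.45 CPM in GDel2, and 0.515, 0.557 and 0.630 CPM in WT. GDel1 overlapped WT, and both GDel2 libraries were above all 5 others. The log2 difference was -0.02 ± 0.38 in GDel1 against WT, 1.151 ± 0.34 in GDel2 against WT and 1.17 ± 0.38 in GDel2 against GDel1 (SE).

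The split of counts between close paralogs is uncertain, because reads that match several genes are divided by estimation. Slfn8, Slfn9 and Slfn10-ps had whole expected counts (within 0.005) in 0 of 7 libraries, while Slfn5 and Slfn2 had whole counts in 7 of 7 and AI662270 in 4 of 7. The sum of Slfn8, Slfn9 and Slfn10-ps, which does not depend on how reads were divided among these 3 genes, was 4.11 and 4.996 CPM in GDel1, 23.5 and 30.6 CPM in GDel2, and 10.16, 10.02 and 11.4 CPM in WT. The summed level kept the order of Slfn9, with a ratio of means 2.31-fold lower in GDel1 than in WT and 2.57-fold higher in GDel2 than in WT. Slfn9 held 71.2% and 65.9% of the sum in GDel1, 85.0% and 89.2% in GDel2, and 84.4%, 81.1% and 81.2% in WT. Its share of the sum was thus lowest in GDel1.

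Slfn2, the short Schlafen protein of quiescent T cells (ENSMUSG00000072620), had 0 counts in all 7 libraries. A count of 0 allows up to 3 counts, or 0.0948 CPM over the GDel1 libraries, 0.113 CPM over the GDel2 libraries and 0.0615 CPM over the WT libraries, for counting error only. No difference between groups was detectable at this depth.

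AI662270, a long non-coding RNA gene by RefSeq's annotation (ENSMUSG00000087107), was barely detected in GDel1 and was lower than WT in GDel2 as well. It had 1 count in each GDel1 library, 9 and 17.5 expected counts in GDel2, and 25, 24.5 and 34.0 expected counts in WT. Scaled to depth these were 0.0805 and 0.0520 CPM in GDel1, 0.710 and 1.30 CPM in GDel2, and 1.84, 1.49 and 1.79 CPM in WT. The 3 groups did not overlap, and the order differed from that of Slfn9: WT was highest here, GDel2 intermediate and GDel1 lowest. From 2 counts in GDel1 and 83 in WT, the level in GDel1 was 26.9-fold lower (95% exact interval 7.22-fold to 226-fold, counting error only). In GDel2 it was 1.67-fold lower than in WT by summed counts (95% exact interval 1.07-fold to 2.68-fold) and 16.1-fold higher than in GDel1 (4.05-fold to 140-fold). The fitted log2 difference in GDel2 against WT was -0.74 ± 0.34 (SE). It was -0.39 without GDel2 replicate 1 and -1.25 without GDel2 replicate 2.

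The length that the authors' tool assigned to AI662270, weighted by its 4 annotated transcripts, was 592 bases in both GDel1 libraries, 1428 and 1059 bases in GDel2, and 880, 769 and 963 bases in WT. Both GDel2 values were above every WT value, but they rest on the few counts given above, and those of GDel1 on 1 count each. For Slfn9, the weighted length was 4906 and 4806 bases in GDel1, 4274 and 4497 bases in GDel2, and 4053, 4515 and 4898 bases in WT. The WT range overlapped both deletions, while both GDel1 values were above both GDel2 values.

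**Figure D1:**
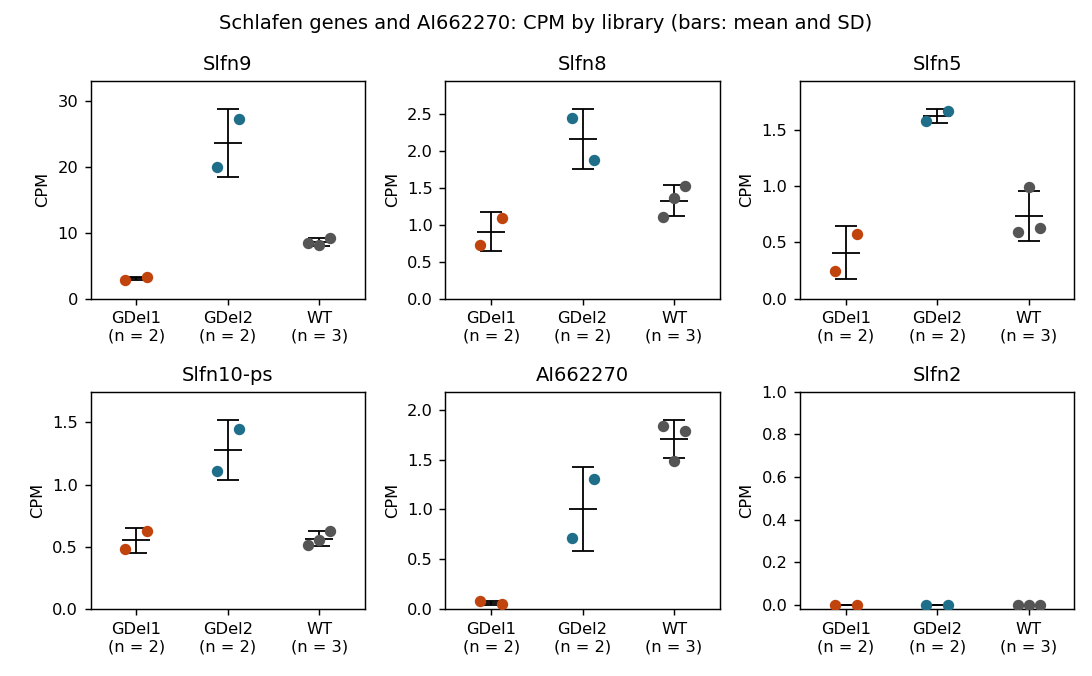
Level of the 6 genes in each library in CPM, on a linear axis of its own for each gene, with GDel1 left, GDel2 in the middle and WT right. Points are libraries, and bars are the group mean with its SD (n = 2, 2 and 3). Slfn9 was at 2.90 and 3.28 CPM in GDel1, at 19.96 and 27.25 CPM in GDel2 and at 8.10 to 9.24 CPM in WT, whereas AI662270 was highest in WT and Slfn2 was at 0 throughout.

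Of the 6 genes, 5 passed the filter on low counts (0.693 CPM in at least 2 libraries), and Slfn2 did not. Slfn10-ps passed through the GDel2 libraries alone, and Slfn5 through both GDel2 libraries and 1 WT library, so neither would have passed without the group in which it was high. Their differences were in part fixed by the filter. Among the 5, Slfn5, Slfn8, Slfn9 and AI662270 had both GDel1 libraries below every WT library, where 22.6% of all genes tested did. None lay wholly above, where 20.9% did. In GDel2, Slfn5, Slfn8, Slfn9 and Slfn10-ps lay wholly above WT, where 32.2% of all genes did, and AI662270 lay wholly below, where 31% did. All 5 were wholly higher in GDel2 than in GDel1, where 29.9% of all genes were, against 29.1% wholly lower. Since the genes were chosen on these counts, nothing is read from these shares.

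Compared per unit of length in TPM, the genes took a different order in each group. In GDel1, Slfn9 led with 0.28 and 0.35 TPM, followed by Slfn8 with 0.14 and 0.23 TPM, Slfn10-ps with 0.08 and 0.12 TPM, AI662270 with 0.06 and 0.08 TPM and Slfn5 with 0.04 and 0.07 TPM. Of these neighbours, Slfn10-ps touched AI662270 at 0.08 TPM and AI662270 overlapped Slfn5. In GDel2, Slfn9 stood far above the rest with 3.20 and 3.54 TPM. AI662270 (0.37 to 0.79 TPM) overlapped Slfn8 (0.30 to 0.68 TPM) there, while Slfn10-ps (0.27 to 0.29 TPM) overlapped Slfn5 (0.22 to 0.27 TPM) only at 0.27 TPM. In WT, AI662270 (1.36 to 1.85 TPM) overlapped Slfn9 (1.13 to 1.60 TPM), and both were above Slfn8 (0.26 to 0.36 TPM). Slfn5 (0.12 to 0.20 TPM) and Slfn10-ps (0.13 TPM in each library) were lowest in WT and did not differ beyond their spread. AI662270 was above Slfn9 within each WT library (1.85 against 1.60, 1.49 against 1.13 and 1.36 against 1.20 TPM) and under it by several-fold in both deletions.

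None of the other 6 genes with a Schlafen name passed the filter. Slfn3, the nearest gene to AI662270, had 4 expected counts in GDel1 (0 and 4), 3 in GDel2 (0 and 3) and 28.2 in WT (8.52, 11.4 and 8.27). By summed counts it was 4.54-fold lower in GDel1 than in WT (95% exact interval 1.59-fold to 17.8-fold) and 5.07-fold lower in GDel2 than in WT (1.57-fold to 26.1-fold). The intervals cover counting error only, and the gene was singled out after its values were seen. Slfn1 and Slfn5os had 0 counts in every library, Slfn14 had 2 in all, Slfn4 had 3.11 and Slfnl1, on another chromosome, had 4. Slfn5os overlaps Slfn5, and no source used here gives the strand used in counting.

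Markers of immune cells, the cells in which Schlafen genes are best known, did not share 1 direction. Of 12 such markers 4 were tested, and the summed level of the 12 was 19.5 to 29.0 TPM in GDel1, 13.9 to 25.2 TPM in GDel2 and 57.3 to 77.1 TPM in WT. On the TPM scale the median log2 difference of all genes was -0.30 in GDel1 against WT, and sums in TPM carry that shift. Most of the immune sum was Laptm5, a lysosomal membrane protein gene, with a mean of 23.1 TPM in GDel1, 16.9 TPM in GDel2 and 63.2 TPM in WT. In CPM the means of Laptm5 were 55.1 in GDel1, 25.0 in GDel2 and 100.7 in WT. Laptm5 fell in GDel2 (log2 -2.01, edgeR adjusted p = 0.00386) and did not pass the test in GDel1 (-0.86, adjusted p = 0.138). The macrophage markers Adgre1 and Lyz2 were at 0 in every library. Ptprc, the pan-leukocyte marker, had 0 counts in GDel1, 1 in GDel2 and 1 in WT. Cd3e, a T cell marker, was highest in GDel2, with a mean of 0.488 CPM in GDel1, 1.22 CPM in GDel2 and 0.559 CPM in WT, and did not pass the test in GDel2 (log2 1.11, adjusted p = 0.0573). Spi1, a myeloid factor gene, was at 0.322 and 0.208 CPM in GDel1, 0.789 and 0.795 CPM in GDel2, and 0.515, 0.619 and 0.367 CPM in WT, the order of Slfn9, and did not pass the test against WT in GDel1 (-0.93, adjusted p = 0.288) or GDel2 (0.67, adjusted p = 0.253). Coro1a differed little (0.22 in GDel2, adjusted p = 0.664). The summed level of 8 fibroblast markers, mostly Vim, was 70.1 to 85.4 TPM in GDel1, 60.7 to 62.1 TPM in GDel2 and 114 to 129 TPM in WT, with Col3a1, Postn and Dcn at 0 in every library. In CPM the means of Vim were 275 in GDel1, 173.5 in GDel2 and 320 in WT. Vim did not pass the edgeR test in GDel1 against WT (log2 -0.22, adjusted p = 0.192). Thy1 of that list took the order of Slfn9, with 0.564 and 0.260 CPM in GDel1, 2.37 and 2.53 CPM in GDel2, and 1.18, 0.866 and 0.735 CPM in WT. It rose in GDel2 (log2 1.42, adjusted p = 0.0105, but 0.0806 without GDel2 replicate 2 and 0.0505 with DESeq2) and had -1.22 in GDel1 (adjusted p = 0.132). Vim of the same list went the other way in GDel2 (log2 -0.88, edgeR adjusted p = 2.77e-04). Col1a1, also tested, had -1.31 in GDel1 (adjusted p = 0.226) and -0.40 in GDel2 (adjusted p = 0.621). The part of these genes in the Schlafen levels was not tested.

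Genes within 1 Mb of the 6 genes show how the surrounding chromosome behaved. The tables held 70 such genes, of which 52 did not pass the filter and 32 had 0 counts in every library, among them 9 of the 11 chemokine (Ccl) genes. In GDel1 against WT, 0 of the 18 tested were called by edgeR, where 0.376% of all genes were (0.162% higher, 0.214% lower). At an unadjusted p under 0.05 there were 8 of 18, where 24.5% of all genes passed. DESeq2 called 0 of them, where it called 6.44% of all genes, and limma on TPM called 4, where it called 21.1%. In GDel2 against WT, 7 of 18 were called (38.9%, 5 higher and 2 lower), where 33.1% of all genes were (17.4% higher, 15.6% lower). In GDel2 against GDel1 the count was 4 of 18 (22.2%, 3 higher and 1 lower), where 27.7% of all genes were called (14.8% higher, 12.8% lower). Without GDel2 replicate 2, the counts were 2 in GDel2 against WT and 1 in GDel2 against GDel1, without WT replicate 1 or WT replicate 2 the count in GDel2 against WT was 4, and without GDel1 replicate 1 the count in GDel1 against WT was 1. The median log2 difference of the 18 was -0.07, 0.08 and 0.14 in the 3 comparisons, against 0.00, 0.01 and -0.01 over all genes and -0.02, 0.11 and 0.09 over 1079 genes of chromosome 11.

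Dusp14, a dual-specificity phosphatase gene, was at 3.22 and 3.54 CPM in GDel1, 7.58 and 7.45 CPM in GDel2, and 3.83, 4.08 and 4.15 CPM in WT. It rose in GDel2 against WT (log2 0.90, edgeR adjusted p = 0.00241) and in GDel2 against GDel1 (1.14, adjusted p = 0.00177), with both GDel2 libraries above all others.

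Rasl10b, a small GTPase gene, was detected in GDel2 at 1.03 and 1.16 CPM, against 0 and 0.156 CPM in GDel1 and 0.294, 0.124 and 0.263 CPM in WT (log2 2.24 over WT, adjusted p = 0.0151). That call was lost without GDel2 replicate 1 (adjusted p = 0.0666), without GDel2 replicate 2 (0.112) and with DESeq2 (0.0713). Rasl10b was over the filter in the GDel2 libraries only, so its difference was in part fixed by the filter. With no filter it had an edgeR adjusted p of 0.00261, from another fit of the same libraries and thus no independent check. Rffl, a ubiquitin ligase gene, also rose in GDel2 (log2 0.60, adjusted p = 0.0202), with adjusted p = 0.183 without GDel2 replicate 2, 0.0715 without WT replicate 1, 0.0755 without WT replicate 3 and 0.212 with limma on TPM. Among the other genes called in GDel2, Ddx52, an RNA helicase gene, rose (0.36, adjusted p = 0.0114), and the vesicle transport genes Synrg (-0.42, adjusted p = 0.0184) and Ap2b1 (-0.27, adjusted p = 0.0284) fell. Ddx52 lost its call without GDel2 replicate 2 (0.0879), WT replicate 2 (0.0525) or WT replicate 3 (0.0535). Synrg lost it without GDel2 replicate 2 (0.134), WT replicate 1 (0.0675) or WT replicate 2 (0.0677). Ap2b1 lost it without any one of the 5 libraries compared (0.0616 to 0.122).

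The tested genes nearest to the 6 did not pass the test. Nle1, a ribosome assembly gene 42903 bases away, had a log2 difference of 0.22 in GDel2 against WT (adjusted p = 0.147), and Rad51d, a homologous recombination gene on the same side, had -0.00 (adjusted p = 0.991). Gm23444, annotated as a small nuclear RNA gene 44914 bases away, was at 1327 and 1780 CPM in GDel1, 1084 and 861 CPM in GDel2, and 329, 563 and 1062 CPM in WT, with GDel2 and WT overlapping.

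**Figure D2:**
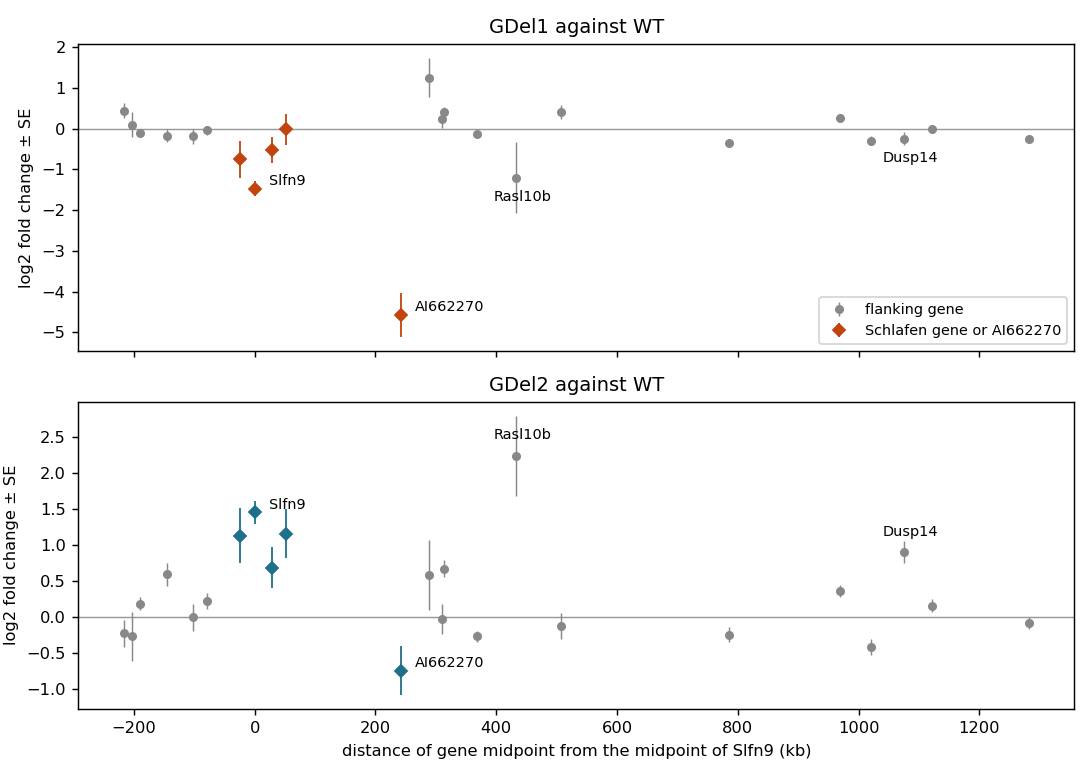
Fitted log2 fold change with its SE (y axis) of each tested gene within 1 Mb of the 6 genes, against the distance of its midpoint from that of Slfn9 in kb, with GDel1 against WT above and GDel2 against WT below. Diamonds are Schlafen genes and AI662270, and grey points are flanking genes. In GDel2, Slfn9 is at 1.45, AI662270 at -0.74 and Dusp14 at 0.90, and the AI662270 point of GDel1 is a fitted value resting on 2 counts, whose size depends on the fit.

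For each of the 5 detected genes, the 3 genes of most alike pattern were found over the 7 libraries by the root mean square (RMS) difference between log2 CPM values centred on the WT mean, among 12402 candidates. A prior count of 2 was added for these log2 CPM values, which makes differences that rest on few counts smaller. They were picked for their likeness, so their levels are a description. For Slfn9, whose own RMS distance from WT was 1.09, the nearest were Rtp3 (0.223), Nxf3 (0.227), a gene of the mRNA export factor family, and Col4a1 (0.256), a basement membrane collagen. Rtp3 had 2 counts over the GDel1 libraries, where it stood at -0.975 and -1.18 against a fitted log2 difference of -2.04. Rtp3 was also over the filter on low counts in the GDel2 libraries only. Col4a1 was at 1.53 and 2.08 CPM in GDel1, 11.9 and 9.90 CPM in GDel2, and 4.34, 3.83 and 4.31 CPM in WT. Nxf3 was at 0.161 and 0.156 CPM in GDel1, 2.29 and 3.54 CPM in GDel2, and 0.736, 0.619 and 0.840 CPM in WT. Both were low in GDel1 and high in GDel2 with no overlap, and both were nearer to Slfn9 than were Slfn5 (0.536), Slfn8 (0.699) and Slfn10-ps (0.790).

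AI662270 was nearest to Myh9, which encodes a non-muscle myosin heavy chain, at an RMS of 0.331 against its own 1.78. With the prior count, AI662270 stood at -3.11 and -3.32 in GDel1, against a fitted log2 difference of -4.58. Myh9 stood at -3.41 and -3.08 in GDel1, against a fitted -3.23. The nearness of AI662270 to Myh9 in GDel1 thus depends on the prior count. Myh9 was at 16.4 and 20.7 CPM in GDel1, 97.7 and 84.9 CPM in GDel2, and 173, 177 and 177 CPM in WT. The next were Xlr3b (0.516) and Xlr4a (0.557), X-linked genes of a lymphocyte-regulated family of near-identical copies, whose counts share that uncertainty. Xlr3b was at 0.161 and 0.260 CPM in GDel1, 0.947 and 1.52 CPM in GDel2, and 3.97, 3.40 and 4.20 CPM in WT, and Xlr4a had 0 counts in GDel1. All 3 were lowest in GDel1 and highest in WT, while the Schlafen genes were 1.5 to 1.95 away from AI662270.

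Slfn5 was nearest to Arhgap30 (0.189), a GTPase-activating protein gene, Homer2 (0.191), a postsynaptic scaffold gene, and Tcp11l1 (0.214), with Slfn8 at 0.345. Slfn8 was nearest to Bhlhe40 (0.109), a transcriptional repressor gene, Slc7a5 (0.111), an amino acid transporter gene, and Adarb1 (0.112), an RNA-editing deaminase gene. Among the genes nearest to Slfn10-ps were Guk1 (0.105), a guanylate kinase gene, and Atg9b (0.109), an autophagy gene. Of the genes named for Slfn5, Slfn8 and Slfn10-ps, Guk1 lies on chromosome 11. A low RMS comes more easily for a gene close to its WT level, as Slfn8 (0.484) and Slfn10-ps (0.554) were.

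**Figure D3:**
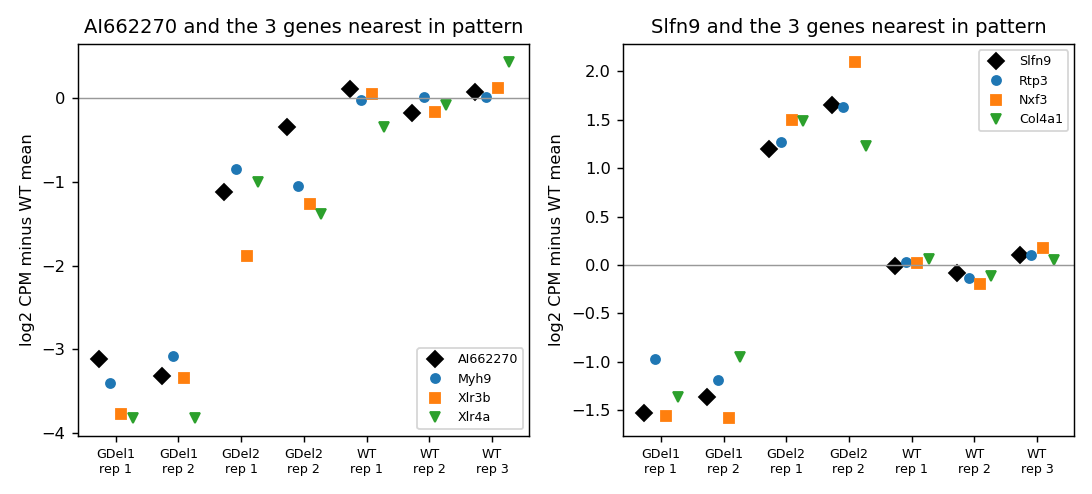
Log2 CPM of each library (prior count 2) minus the WT mean (y axis) for AI662270 and Slfn9, each with the 3 genes nearest in pattern. The libraries of GDel1, GDel2 and WT stand side by side on the x axis, and each point is 1 library. Rtp3, Nxf3 and Col4a1 lie below 0 in GDel1 and above 0 in GDel2, as Slfn9 does, and Myh9, Xlr3b and Xlr4a lie below 0 in both deletions, as AI662270 does.

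Interferon pathway genes, the known inducers of several Schlafen genes and their other targets, changed in both directions in GDel2. Of 71 such genes 38 were tested, and none of the 9 interferon ligand genes passed the filter. In GDel1 against WT, 0 of 38 were called by edgeR, where 0.376% of all genes were. At an unadjusted p under 0.05 there were 6 of 38 (24.5% of all genes), DESeq2 called 0 (6.44% of all genes) and limma on TPM called 9 (21.1% of all genes). In GDel2 against WT, 16 were called (42.1%, where 33.1% of all genes were), with a median of -0.15 against 0.01 over all genes. Of the 38, 8 were called higher and 8 lower, where 17.4% of all genes were called higher and 15.6% lower. In GDel2 against GDel1, 15 were called (39.5%, where 27.7% of all genes were). Of the 38, 6 were called higher and 9 lower, where 14.8% of all genes were called higher and 12.8% lower. Without GDel2 replicate 2, 9 were called in GDel2 against WT, and without GDel1 replicate 1 or replicate 2, 3 or 1 in GDel1 against WT. On the TPM scale with limma, the split in GDel2 against GDel1 was 11 higher and 3 lower, so its balance depends on the scaling.

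Among the receptors, 2 of 6 tested fell in GDel2 and 0 rose, where 15.6% of all genes were called lower and 17.4% higher. Ifngr2, a chain of the interferon gamma receptor, was at 3.30 and 3.28 CPM in GDel1, 1.58 and 1.37 CPM in GDel2, and 3.31, 3.40 and 3.94 CPM in WT (log2 -1.27 in GDel2 against WT, edgeR adjusted p = 0.00265). Ifnlr1, a chain of the interferon lambda receptor, fell too (-1.03, adjusted p = 0.00329). Of 3 kinases, Jak2 fell in GDel2 (-0.39, adjusted p = 0.0478), but not without any one of the 5 libraries compared (0.0721 to 0.191) and not with DESeq2 (0.196). Of 5 factors tested, 2 rose and 1 fell. Irf1, a factor that activates interferon targets, was at 11.03 and 12.2 CPM in GDel1, 18.9 and 18.9 CPM in GDel2, and 9.64, 10.9 and 8.98 CPM in WT, and rose in GDel2 (0.94, adjusted p = 7.68e-04). Stat2, which acts with Irf9 at the ISRE, fell in GDel2 (-0.61, adjusted p = 0.0143, and 0.102 without GDel2 replicate 2), and Irf9 had -0.18 (adjusted p = 0.234). Of 4 inhibitors, Socs1, which blocks Janus kinases, rose in GDel2 (1.78, adjusted p = 0.00633, and 0.0707 without GDel2 replicate 2).

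Among the 20 induced genes tested, 5 rose and 4 fell in GDel2, where 17.4% of all genes were called higher and 15.6% lower. Ifit2, which binds RNA and is a classical interferon target, was at 0.322 and 0.208 CPM in GDel1, 1.42 and 2.24 CPM in GDel2, and 0.294, 0.433 and 0.420 CPM in WT (log2 2.22, adjusted p = 0.00266). Ifit2, among the 5, was over the filter in the GDel2 libraries only, and Irgm1 and the inhibitor gene Socs1 needed those libraries to pass. Their differences were thus in part fixed by the filter. With no filter the edgeR adjusted p in GDel2 against WT was 2.77e-05 for Ifit2, 0.0171 for Irgm1 and 7.85e-05 for Socs1. That fit used the same libraries and called 5974 genes where the main fit called 5099, so it is no independent check. Bst2, which tethers budding virus particles, rose (1.96, adjusted p = 3.35e-04), as did H2-K1, a class I histocompatibility chain (1.501, adjusted p = 5.36e-04). Oas1a, an oligoadenylate synthetase gene, was at 35.3 and 30.3 CPM in GDel1, 13.4 and 11.7 CPM in GDel2, and 30.5, 29.7 and 33.9 CPM in WT. Oas1a fell in GDel2 (-1.32, adjusted p = 1.41e-04), and so did Ifitm1, an antiviral membrane protein gene also known from early germ cells (-1.27, adjusted p = 2.77e-04). Ifitm3, of the same family, fell as well (-0.45, adjusted p = 0.00474, and 0.0609 with limma on TPM). The other 3 called were the immunity-related GTPase genes Irgm2 (1.63, adjusted p = 0.0145) and Irgm1 (1.42, adjusted p = 0.0281), which rose, and Xaf1 (-0.67, adjusted p = 0.0198), a cell death gene, which fell. Irgm2 lost its call without GDel2 replicate 1 (0.0914), GDel2 replicate 2 (0.0535) or WT replicate 3 (0.0525), and Irgm1 without GDel2 replicate 1 (0.061), GDel2 replicate 2 (0.205), WT replicate 1 (0.079) or WT replicate 2 (0.0849). Xaf1 lost it without GDel2 replicate 1 (0.0861), GDel2 replicate 2 (0.104), WT replicate 1 (0.0608) or WT replicate 2 (0.0574).

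**Figure D4:**
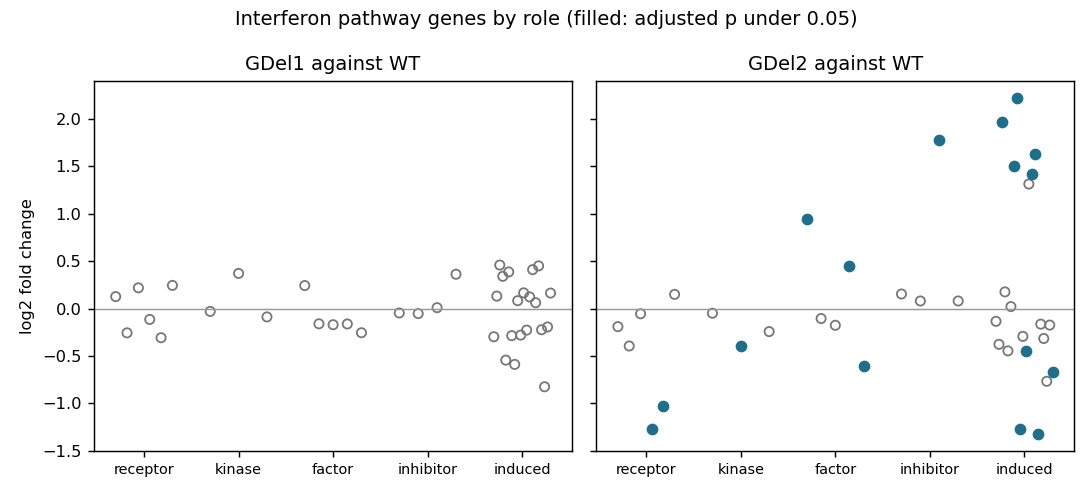
Log2 fold change (y axis) of the 38 interferon pathway genes tested, by role on the x axis, in GDel1 against WT on the left and GDel2 against WT on the right. Each point is a gene, and filled points have an edgeR adjusted p under 0.05. None of the points of GDel1 is filled, and 16 of GDel2 are, 8 above 0 and 8 below it.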

How the data were processed

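RNA-Seq of 7 samples of a series of 66 was used (2 GDel1, 2 GDel2, 3 WT), and the other 59 samples were not analysed here. The deposited tables hold expected counts per gene, which the authors estimated with RSEM and which are not scaled for depth; 6.91% to 8.22% of values per library are not whole. They also hold TPM, which the authors scaled for transcript length and library size, and FPKM, deposited by the authors and not used here. The deposited lengths are in bases. The submitters' processing notes name Bowtie2, STAR, RSEM, deepTools and HiC-Pro, with no versions, and the mm10 build; no source used here gives the annotation release or the counting strand. Of 55487 gene identifiers, 55141 had a symbol, and 37807 had a position in RefSeq's table of GRCm38.p6, which also gave the promoter sequences (4 of 6 genes matched).

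Expected counts were rounded to whole numbers and filtered with edgeR (minimum count 10, minimum total 15), which left 15421 genes. All genes were fitted with R 4.3.3 and edgeR 4.0.16 (TMM scaling, quasi-likelihood F test) as 1 model with 3 groups, with Benjamini-Hochberg adjustment over all genes tested and a threshold of 0.05. CPM are expected counts scaled to the TMM library size. Depth was 12316853 to 18762704 expected counts, and replicates of each group differed by more than counting noise. Intervals for ratios of counts are exact 95% intervals and, like the limit of 3 counts for a count of 0, cover counting error only. DESeq2 1.42.0, limma 3.58.1 on log2(TPM + 1), 2 other filters, a block by replicate number and leaving out each library were tried as alternatives. The fit was tested on simulated data.

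The 6 genes and all gene lists were chosen with earlier results of these data known. Named were the 6 genes, the other Schlafen genes, every tested gene within 1 Mb, the 3 genes nearest in pattern to each detected gene, Praf2, and up to 4 called genes per list and comparison. Stat2, Irf9, Irf1, Ifngr2, Socs1, Ifit2, Ifnlr1, Jak2, Irgm1, Irgm2, Xaf1, Cd3e, Spi1 and Esrrb were added after values were seen. Some results are not reported here.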

Additional observations from a re-analysis of the deposited data

Results flagged for a closer look

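Slfn9, Slfn5 and Slfn8 were flagged because every GDel1 library lay below and every GDel2 library above the WT libraries, although both carry the same genotype label. The log2 difference in GDel2 against GDel1 was 2.92 for Slfn9, 1.88 for Slfn5 and 1.2 for Slfn8. These differences were not tested, since the genes were chosen on these counts.

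The other genes were flagged because the edgeR test of GDel2 against GDel1, which is the difference between both deletions' effects, passed the threshold. Among the flanking genes, Dusp14 differed by 1.14 (log2, adjusted p = 0.00177), Rasl10b by 3.44 (adjusted p = 0.00938), Rffl by 0.772 (adjusted p = 0.0129) and Zfp830, a zinc finger gene, by -0.668 (adjusted p = 0.0396). Of these, Rffl (0.0911) and Rasl10b (0.0589) lost their calls without GDel2 replicate 2. Zfp830 lost its call without GDel1 replicate 2 (0.134), GDel2 replicate 1 (0.0816), GDel2 replicate 2 (0.19) or WT replicate 1 (0.0665).

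Among the interferon pathway genes, Ifit2 differed by 2.81 (adjusted p = 0.00291), H2-K1 by 1.79 (5.96e-04), Socs1 by 1.77 (0.0136), Bst2 by 1.5 (0.00255) and Irf1 by 0.7 (0.00665), all higher in GDel2. Oas1a differed by -1.38 (2.19e-04), Ifitm1 by -1.36 (3.73e-04), Ifngr2 by -1.15 (0.00725), Xaf1 by -0.829 (0.013), Jak2 by -0.763 (0.00481), Ifnlr1 by -0.722 (0.0272) and Ifitm3 by -0.614 (0.00196), all lower in GDel2. Socs1 lost its call without GDel2 replicate 2 (0.0909), and Xaf1 without GDel2 replicate 1 (0.0658) or GDel2 replicate 2 (0.0685). Ifnlr1 lost it without GDel1 replicate 2 (0.0713), GDel2 replicate 1 (0.126), GDel2 replicate 2 (0.0638) or WT replicate 2 (0.0544). Praf2 was higher in GDel2 than in GDel1 by 0.497 (adjusted p = 0.0183), a call lost without GDel1 replicate 2 (0.0602) or GDel2 replicate 2 (0.0886).

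Among the marker genes, Thy1 differed by 2.64 (adjusted p = 0.0024), Spi1 by 1.6 (0.048), Zfp42 by 0.844 (5.32e-04) and Nanog by 0.508 (0.00599), higher in GDel2, and Dppa5a by -1.43 (0.00117), Laptm5 by -1.15 (0.0425), Vim by -0.664 (0.00208) and Sox2 by -0.349 (0.0336), lower in GDel2. Spi1, which was over the filter in the GDel2 libraries only, lost its call without any one of the 7 libraries (0.0542 to 0.236) and with no filter (0.0937). Laptm5 lost it without GDel1 replicate 2 (0.206), GDel2 replicate 2 (0.122) or any WT library (0.0626 to 0.0661). Sox2 lost it without any one library other than GDel1 replicate 2 (0.0516 to 0.127). Rasl10b, Ifit2 and Socs1 passed the filter because of the GDel2 libraries, so their differences are in part fixed by it.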

How the results depend on the processing

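Of 2493 values recomputed over 13 settings, 2195 kept their direction and their side of the threshold, 260 changed side, 33 Schlafen or AI662270 values moved by more than their spread and 5 reversed. Of the 15 log2 differences of the 5 detected genes, 14 to 15 kept their sign when 1 library was left out, and the 3 of Slfn9 were what a stricter filter (30 counts) left to compare. Slfn10-ps in GDel1 against WT, at -0.02, was 0.0515 with a replicate block, 0.13 without GDel1 replicate 1, 0.07 without WT replicate 3 (-0.24 to 0.13 over all single libraries left out) and 0.15 without both libraries of high mitochondrial share. Sox2 in GDel2 against GDel1, at -0.35, was 0.0121 with limma on TPM. The cause of these reversals was not tested. On that scale the median of all genes shifted to -0.30 in GDel1 against WT and 0.24 in GDel2 against GDel1.

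Counts for GDel1 against WT depended most on the setting. The 58 genes called became 993 with DESeq2, 2357 with no filter, 34 with the stricter filter, 3250 with limma on TPM, 1 with the replicate block, 4262 without both libraries of high mitochondrial share (an alternative added after seeing the data, in which the spread comes from WT alone) and 4 to 2034 without 1 library (lowest without WT replicate 1 or 2, highest without GDel1 replicate 1). The 0 flanking genes became 2 with no filter, 4 with limma, 8 without both libraries and 0 to 1 without 1 library. The 0 interferon genes became 2, 9, 5 and 0 to 3 under the same settings. For GDel2 against WT, the 5099 genes became 2604 with limma, 2296 with the block and 2643 to 6578 without 1 library (lowest without GDel2 replicate 2), the 7 flanking genes 2, 3 and 2 to 7, and the 16 interferon genes 10 with the block and 9 to 20 without 1 library. For GDel2 against GDel1, the 4268 genes became 2235 with the block and 2602 to 5617 without 1 library (lowest without GDel2 replicate 2, and 2805 without GDel2 replicate 1). The 4 flanking genes became 2 with the block, 7 without both libraries and 1 to 6 without 1 library, and the 15 interferon genes 10 to 19 without 1 library. Where a group is left with 1 library, that library is assumed to vary like the other groups.

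The labels give the groups shared replicate numbers but no pairing, and same-numbered libraries did not deviate together (correlations of -0.208 to 0.104), so the block was not treated as a pairing.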
